A study of Mus musculus with 8 samples.

Results

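The 10 genes described here encode the AP-1 subunits Jun, Junb, Jund, Fos, Fosb and Fosl2, the related factor Atf3, and the immediate early products Egr1, Ier2 and Zfp36. They were chosen by name, and each name matched 1 of the 50686 Ensembl gene IDs in the count table through the GENCODE M21 annotation. All 10 were among the 16066 genes with enough counts to be tested. RNA was sequenced from hematopoietic stem cells (HSCs), the marrow cells from which all blood lineages are maintained, and the groups ask how gene expression varies with HSC size.

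The cells came from the flushed long bones of C57BL/6J mice, whose age and sex the labels leave out. Red cells were lysed, lineage-positive cells were depleted, and antibodies to CD150 (Slamf1), CD48, Sca-1 (Ly6a) and CD117 (Kit) marked the HSCs. By light scatter, Large HSCs were the largest 10%, Medium HSCs those of mean size give or take 10%, and Small HSCs the smallest 10%, while All HSCs passed no size gate. No group carried an altered allele or was given an agent. Each library held the RNA of 10000 cells in G0/1, collected without serum into a phenol reagent that was vortexed at intervals during the sort, and a low-input kit gave the cDNA. Each of the 4 groups had 2 libraries, called here by their replicate number, as in Large 1 and Large 2. What a number stands for is not in the labels, which name no separate animals, so the p-values rest on a spread between libraries that may be technical. They also give no sort duration or time to lysis for any library.

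AP-1 is a dimer that joins a Jun protein with another Jun, a Fos or an ATF protein and binds TGA-containing sites in promoters and enhancers. Jun, Fos, Egr1 and other immediate early genes are transcribed within minutes of a stimulus by factors already present in the cell, downstream of MAP kinases, and most of their mRNAs decay fast. In blood stem cells these genes are known both as regulators of quiescence and proliferation and as genes that dissociation, staining and sorting can induce, so their levels in sorted cells need not be those in the marrow.

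Library totals lay between 13698362 counts (Small 2) and 16838448 (All 2), and the 10 genes held between 0.262% (Large 1) and 0.540% (Small 1) of them. The 7 HSC markers (Slamf1, Procr, Mecom, Hlf, Kit, Ly6a and Gata2) were detected in every library. Their summed level was lower in Large than in Small within both numbers, at 681 CPM (counts per 1000000, scaled by TMM) in Large 1 against 1271 in Small 1 and 1280 in Large 2 against 2246 in Small 2. The 13 granulocyte and monocyte markers, none of them at 0, summed to 48732 and 25705 CPM in Large libraries 1 and 2, 27588 and 10212 in Medium, 49321 and 14546 in Small, and 63500 and 4732 in All, lower in number 2 in every group. The 7 B cell markers reached 280 CPM in Large 2 and lay between 37.8 and 117 in the other libraries. The 7 erythroid markers had 244 to 518 CPM in number 2 and 1202 to 2082 in number 1. The 7 macrophage markers summed to 70.6 to 200 CPM. The 5 megakaryocyte markers summed to 127 to 458 CPM and the 5 T and NK cell markers to 54 to 973, with Cd3d and Ncr1 at 0 in some libraries, and both sums were lower in number 2 in every group. The 6 markers of mast cells, basophils and eosinophils summed to 31 to 1728 CPM, with Ms4a2 at 0 in some. Endothelial and stromal markers summed to 104 to 210 CPM, with Cdh5, Lepr and Col1a1 at 0 in some libraries. The part of other cells in the levels below was not tested, and in bulk RNA fewer cells of a type cannot be told apart from less RNA per cell.

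Promoter windows from RefSeq (GRCm38.p6, 250 bases before to 50 after the start) were found for 8 of the 10 genes, all but Egr1 and Ier2. The 4 shown, up to 120 bases ending at or just before the start on the gene's own strand, hold the AP-1 or CRE-type letters through which several of these genes are known to respond to signals and to AP-1 itself. Capitals mark TGACATCA in Jun and TGACG, one arm of a cAMP response element, in the other 3.
Jun (chr4:95052223-95052342, minus strand): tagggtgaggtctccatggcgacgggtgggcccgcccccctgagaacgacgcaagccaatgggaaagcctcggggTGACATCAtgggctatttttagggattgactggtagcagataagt
Junb (chr8:84978749-84978868, minus strand): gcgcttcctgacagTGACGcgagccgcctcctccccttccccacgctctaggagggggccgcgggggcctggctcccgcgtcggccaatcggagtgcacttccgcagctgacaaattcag
Fos (chr12:85473770-85473889, plus strand): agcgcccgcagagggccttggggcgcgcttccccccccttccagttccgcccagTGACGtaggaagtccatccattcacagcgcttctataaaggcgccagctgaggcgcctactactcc
Fosb (chr7:19310052-19310165, minus strand): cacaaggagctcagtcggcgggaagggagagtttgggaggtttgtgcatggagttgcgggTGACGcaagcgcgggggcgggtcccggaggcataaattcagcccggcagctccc

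Both strands of each window were searched. Egr1 and Ier2, which had no window, and sequence outside the windows of the other genes were not searched for any motif. TGACATCA was in 2.93% of 32851 RefSeq promoter windows and in that of Jun, 45 bases before its start. TGACG was in 17.8% of all windows and in those of Fos, Fosb, Junb and Atf3, and any full CRE (TGACGTCA, 1.55% of windows) would also count as holding TGACG. No member's window held TGACGTCA or TGANTCA (6.75%). For Jund the RefSeq start used (70697739) lies upstream of the GENCODE M21 start (70698949), so the bases next to the M21 start were not searched. Bases before the RefSeq starts of Fosl2 and Zfp36 overlap M21 exons. The EGR motif GCGNGGGCG, in 4.7% of windows, was in those of Fosl2, Fosb and Zfp36. The CArG box, the motif of serum response factor, was in 1.47% of windows and in that of Zfp36, and TATAAA, in 12.4%, was in that of Fos. A match in letters is a description of the sequence, and these data hold no measure of binding.

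Per length, as mean TPM over the 8 libraries, Fos (471), Jun (416), Ier2 (304), Junb (302), Jund (299), Egr1 (279) and Zfp36 (232) were all abundant mRNAs, and Atf3 (79.5), Fosb (39.7) and Fosl2 (23.9) were lower. The order of the first 7 was not stable, since Fos ranked between 4 and 6 of the 10 in number 2 and first in all 4 libraries of number 1. Jun ranked between 1 and 3 in all 8 libraries, and Fosl2 ranked last in all 8.

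Jun, the founding Jun subunit, lies on chromosome 4 (95049034 to 95052222, GRCm38) in a single exon. It had 725 and 861 CPM in Large libraries 1 and 2, 904 and 868 in Medium, 1461 and 1039 in Small, and 770 and 711 in All. Both Small libraries were above the other 6 libraries, and Large and All overlapped. Junb, a Jun subunit that restrains stem cell proliferation in mice, lies on chromosome 8 (84974484 to 84978718). It had 319 and 260 CPM in Large, 459 and 323 in Medium, 635 and 329 in Small, and 388 and 296 in All. Within number 2 Medium and Small were nearly equal, and Large was the lowest group within both numbers. Prdx2 on the other strand, which had 338 to 516 CPM, overlaps it by 351 bases, and since no source used here says whether counting used strand, reads in that overlap could not be told apart. Jund, the Jun subunit least dependent on stimulation, lies in a single exon on chromosome 8 (70698949 to 70700616). It had 150 and 324 CPM in Large, 196 and 500 in Medium, 268 and 455 in Small, and 186 and 582 in All. Its numbers were further apart than its groups, with each library of number 2 above every library of number 1.

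Fos, the main inducible Fos subunit, lies on chromosome 12 (85473890 to 85477273). It had 704 and 266 CPM in Large, 1111 and 336 in Medium, 1074 and 452 in Small, and 962 and 341 in All. Each library of number 1 was above every library of number 2, the reverse of Jund. Fosb, a Fos subunit whose mRNA also gives a short splice form, lies on chromosome 7 (19302696 to 19310051). It had 29.5 and 78.8 CPM in Large, 78.8 and 112 in Medium, 50.6 and 130 in Small, and 52.8 and 249 in All. Large was its lowest group within both numbers. Fosl2, which encodes Fra-2, lies on chromosome 5 (32135801 to 32157842). It had 11.8 and 55.6 CPM in Large, 32.6 and 116 in Medium, 27.7 and 118 in Small, and 33.9 and 202 in All. All was its highest group and Large its lowest within both numbers.

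Atf3, a stress-induced ATF protein that pairs with Jun proteins, lies on chromosome 1 (191170296 to 191218039). It had 34.2 and 131 CPM in Large, 86.3 and 153 in Medium, 107 and 141 in Small, and 63.6 and 130 in All. Its spread among the groups was narrow in number 2 and wide in number 1. Egr1, a zinc finger factor known to hold HSCs in the marrow and in quiescence in mice, lies on chromosome 18 (34859823 to 34864984). It had 181 and 583 CPM in Large, 363 and 706 in Medium, 685 and 980 in Small, and 300 and 813 in All. Small was its highest group within both numbers. Ier2, a short nuclear immediate early protein, lies in a single exon on chromosome 8 (84661331 to 84662852). It had 301 and 236 CPM in Large, 385 and 290 in Medium, 488 and 268 in Small, and 311 and 259 in All. Zfp36, which encodes tristetraprolin and speeds the decay of AU-rich mRNAs such as those of cytokines and immediate early genes, lies on chromosome 7 (28376784 to 28380253). It had 380 and 166 CPM in Large, 546 and 294 in Medium, 771 and 325 in Small, and 459 and 293 in All. For both genes the Large libraries were the lowest within their number.

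**Figure D1:**
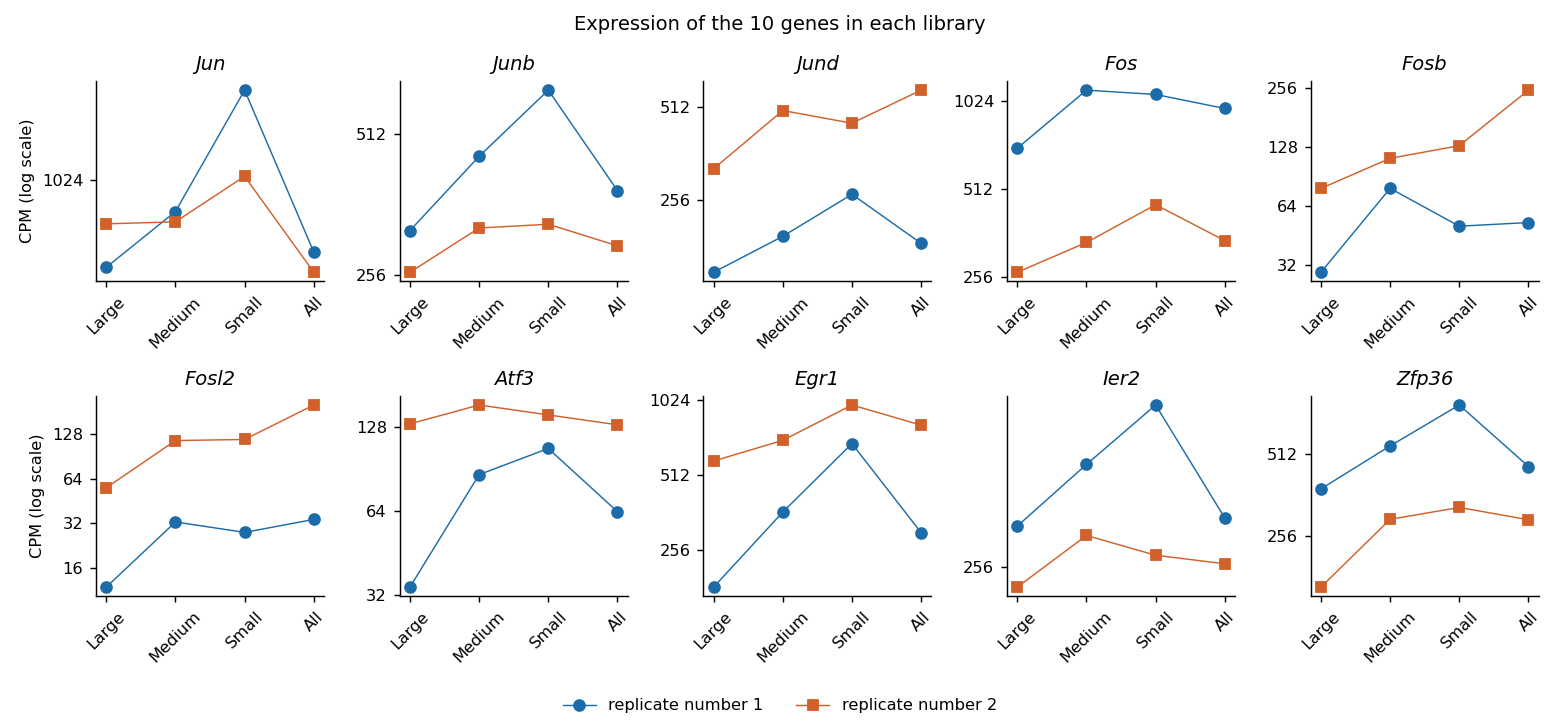
CPM of each gene (log scale, a separate range in each panel) in Large, Medium, Small and All HSCs, with 1 point for each library, circles for replicate number 1 and squares for number 2, and lines joining libraries of the same number. Large is the lowest of the 4 groups for 10 of 10 genes in number 1 and for 8 of 10 in number 2, where Jun and Atf3 were lowest in All.

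Over all 4 groups, Large was the lowest for all 10 genes within number 1, against 28.2% of all genes tested, and for 8 of 10 within number 2, against 27.7%. It was the lowest within both numbers for 8 of 10, against 13.7% of all genes, and the exceptions, Jun and Atf3, had their lowest level of number 2 in All. Small was the highest group for 7 of 10 genes in number 1, against 25.6% of all genes, and for 5 of 10 in number 2, against 22.5%. The summed level of the 10 genes per length was 1672 and 1772 TPM in Large 1 and 2, 2668 and 2337 in Medium, 3466 and 2891 in Small, and 2151 and 2614 in All. Both Large libraries were therefore below the other 6, and both Small libraries were above them.

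Large against Small HSCs, the 2 ends of the size range, gave lower values in Large for all 10 genes within both numbers, where 30.9% of all genes tested were lower within both. The median difference of the 10 was -1.0 in log2 CPM within number 1 and -0.61 within number 2, and -0.72 for the means of both, against 0.02 for all genes. Differences within number 1 ran from -1.92 (Egr1) to -0.61 (Fos), and within number 2 from -1.09 (Fosl2) to -0.10 (Atf3). For Jun, Junb and Egr1 both Large libraries were below both Small libraries, 3 of 10 genes where 14.7% of all genes were so placed. The other 7 overlapped because their levels differed between the numbers. Markers of other cells moved with this comparison too. The T and NK cell markers summed to 973 CPM in Large 1 against 640 in Small 1 and 351 in Large 2 against 170 in Small 2. The erythroid markers summed to 2082 CPM in Large 1 against 1878 in Small 1 and 483 in Large 2 against 244 in Small 2. Both sums were thus higher in Large within both numbers, where HSC markers were lower. The macrophage markers were lower too, at 154 CPM in Large 1 against 200 in Small 1 and 125 in Large 2 against 145 in Small 2. All other marker sums were lower in Large within number 1 and higher within number 2. They were those of granulocytes and monocytes, B cells, megakaryocytes, mast cells, basophils and eosinophils, and endothelial and stromal cells. The part of any of these cells in the differences was not tested.

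Jun averaged 793 ± 95.9 CPM in Large and 1250 ± 299 in Small (SD, n = 2 each), and its differences were -1.01 and -0.27 in log2 CPM within numbers 1 and 2. Egr1 averaged 382 ± 284 CPM in Large and 832 ± 208 in Small, with differences of -1.92 and -0.75. Zfp36 averaged 273 ± 151 CPM in Large and 548 ± 316 in Small, and its differences within the numbers were nearly equal, at -1.02 and -0.96. Fosl2 (-1.23 and -1.09), Fosb (-0.78 and -0.73) and Fos (-0.61 and -0.76) likewise differed by similar amounts in both numbers. Atf3 did not, with -1.64 in number 1 and -0.10 in number 2, and Ier2 (-0.70 and -0.18) and Junb (-0.99 and -0.34) also differed more in number 1. For these 2 genes Small 1 was the highest of the 8 libraries, and Large 1 was above Large 2. Jund lay between, at -0.83 and -0.49.

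**Figure D2:**
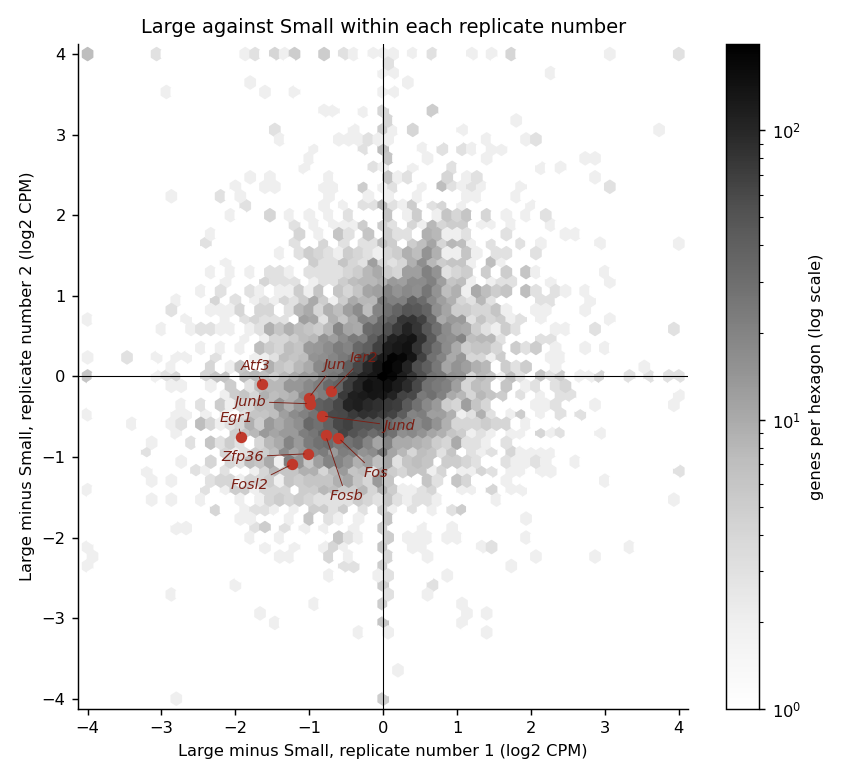
Difference in log2 CPM between Large and Small HSCs within replicate number 1 (horizontal) and number 2 (vertical), with grey hexagons for the 16066 genes tested (values beyond 4 drawn at 4) and red points for the 10 genes. All 10 lie at the lower left, where Large is below Small within both numbers.

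No gene passed edgeR's quasi-likelihood test with Benjamini-Hochberg adjustment in this comparison, 0 of 16066, with 506 genes at an unadjusted p under 0.05 and 10 genes called by DESeq2. The adjusted p was 0.98 for each of the 10 genes, and Jun alone of them was lower at an unadjusted p under 0.05 (log2 fold change -0.66, SE 0.22), as were 1.38% of all genes. That fit leaves the difference between the numbers in its spread. With the replicate number as a block, edgeR again called 0 genes (smallest adjusted p 0.054, 2791 genes at an unadjusted p under 0.05), and 9 of the 10 genes, all but Fosb, were lower at an unadjusted p under 0.05, against 7.94% of all genes. DESeq2 with the same block called 1417 genes, and by that test 7 of the 10 fell in Large, against 4.2% of all genes called lower. They were Zfp36 (log2 fold change -1.01, SE 0.18, adjusted p = 3.4e-06), Egr1 (-1.36, SE 0.25, adjusted p = 8.1e-06), Fosl2 (-1.17, SE 0.23, adjusted p = 5.4e-05), Fos (-0.70, SE 0.15, adjusted p = 0.00017), Junb, Jun and Jund (adjusted p = 0.0027, 0.0041 and 0.014). Ier2 (adjusted p = 0.053), Atf3 (0.056) and Fosb (0.13) did not pass. The call therefore depended on the tool as well as on the block. On log2(TPM + 1), limma-trend with the block called 76 of 16066 genes lower, 2 of the 10 among them. With GC and length trends removed, limma-trend with the block called none of the 10 (adjusted p between 0.066 for Zfp36 and 0.64 for Fosb). In that fit the log2 fold changes were smaller in size than in edgeR with the block for all of the 10 but Fos and Atf3. Those of Jun, Jund and Fosb shrank to -0.41, -0.42 and -0.44, against -0.64, -0.68 and -0.75. Egr1 shrank from -1.34 to -0.92 and Fosl2 from -1.16 to -0.85, while Fos went from -0.69 to -0.72 and Atf3 from -0.83 to -0.91. These fits differ in tool as well as in the trends removed. With All 1 or All 2 left out, edgeR with the block called 253 and 172 genes, Zfp36 and Fosl2 among them (adjusted p = 0.033 and 0.039 for each). Without the block, leaving out 1 library turned the direction of Fos and Ier2 (without Small 1), Fosb and Fosl2 (without Small 2) and Atf3 (without Large 1), with log2 fold changes between 0.00 and 0.28, whereas with it all 10 stayed lower whichever of the 8 libraries was left out.

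Large against Medium HSCs also gave lower values in Large for all 10 genes within both numbers, against 33% of all genes, with medians of -0.59 and -0.33 within numbers 1 and 2. Jun, Junb and Fosb had both Large libraries below both Medium libraries, as had 17.2% of all genes, for Fosb by a margin lost in rounding. Fosl2 differed most, by -1.46 and -1.06 in log2 CPM, and Fosb by -1.42 and -0.51. Jun was close to level in number 2, at -0.32 and -0.01. Zfp36 was lower by -0.52 and -0.82, Fos by -0.66 and -0.34, and Jund by -0.38 and -0.63. Ier2 differed by -0.36 and -0.30, and Egr1, like Atf3 (-1.33 and -0.22), mainly in number 1, by -1.0 and -0.28.

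In this comparison edgeR called 0 of 16066 genes (301 at an unadjusted p under 0.05), with an adjusted p of 0.99 for each of the 10, and DESeq2 called 2. With the block, edgeR called 0 genes (73 without All 2, Fosl2 among them) and DESeq2 923, and by DESeq2 4 of the 10 fell in Large, against 2.5% of all genes called lower. They were Fosl2 (log2 fold change -1.27, SE 0.23, adjusted p = 1.7e-05), Zfp36 (-0.67, SE 0.18, adjusted p = 0.0060), Fos (-0.51, SE 0.15, adjusted p = 0.015) and Fosb (-1.03, SE 0.34, adjusted p = 0.039). The comparisons of Large with Small, Medium and All share the Large libraries and are not independent of each other.

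Medium against Small HSCs differed less. Jun, Junb, Egr1 and Zfp36 were lower in Medium within both numbers, 4 of 10 genes against 29.3% of all genes, and the other 6 had opposite signs in the 2 numbers. The median difference was -0.17 in log2 CPM, against 0.01 for all genes. Egr1 differed by -0.91 and -0.47 within numbers 1 and 2 and Jun by -0.69 and -0.26, and Jun was the only one of the 10 with both Medium libraries below both Small libraries, as were 14.3% of all genes. The signs differed for Fosb, with 0.64 and -0.22. No gene was called by edgeR, with the block or without it (695 of 16066 at an unadjusted p under 0.05 without it), and DESeq2 called 43 genes without and 518 with the block, none of the 10 among them in either (smallest adjusted p with the block 0.061, for Egr1, where 1.51% of all genes were called lower).

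The same 4 genes, Jun, Junb, Egr1 and Zfp36, were the only ones of the 10 in the order Large below Medium below Small within both numbers, against 5.37% of all genes. A slope per gate step over the 6 gated libraries was negative for all 10, between -0.56 (Egr1) and -0.25 (Ier2) in log2 CPM per step. The edgeR fit without the block gave an adjusted p of 0.95 for each, and of 15532 genes it called Igkv12-89, an immunoglobulin variable segment, alone. With the block, DESeq2 called 7 of the 10 as falling with size, against 2.3% of genes, led by Zfp36 (slope -0.50, SE 0.10, adjusted p = 7.9e-05) and Egr1 (-0.67, SE 0.13, adjusted p = 0.00021), and edgeR called none of them.

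**Figure D3:**
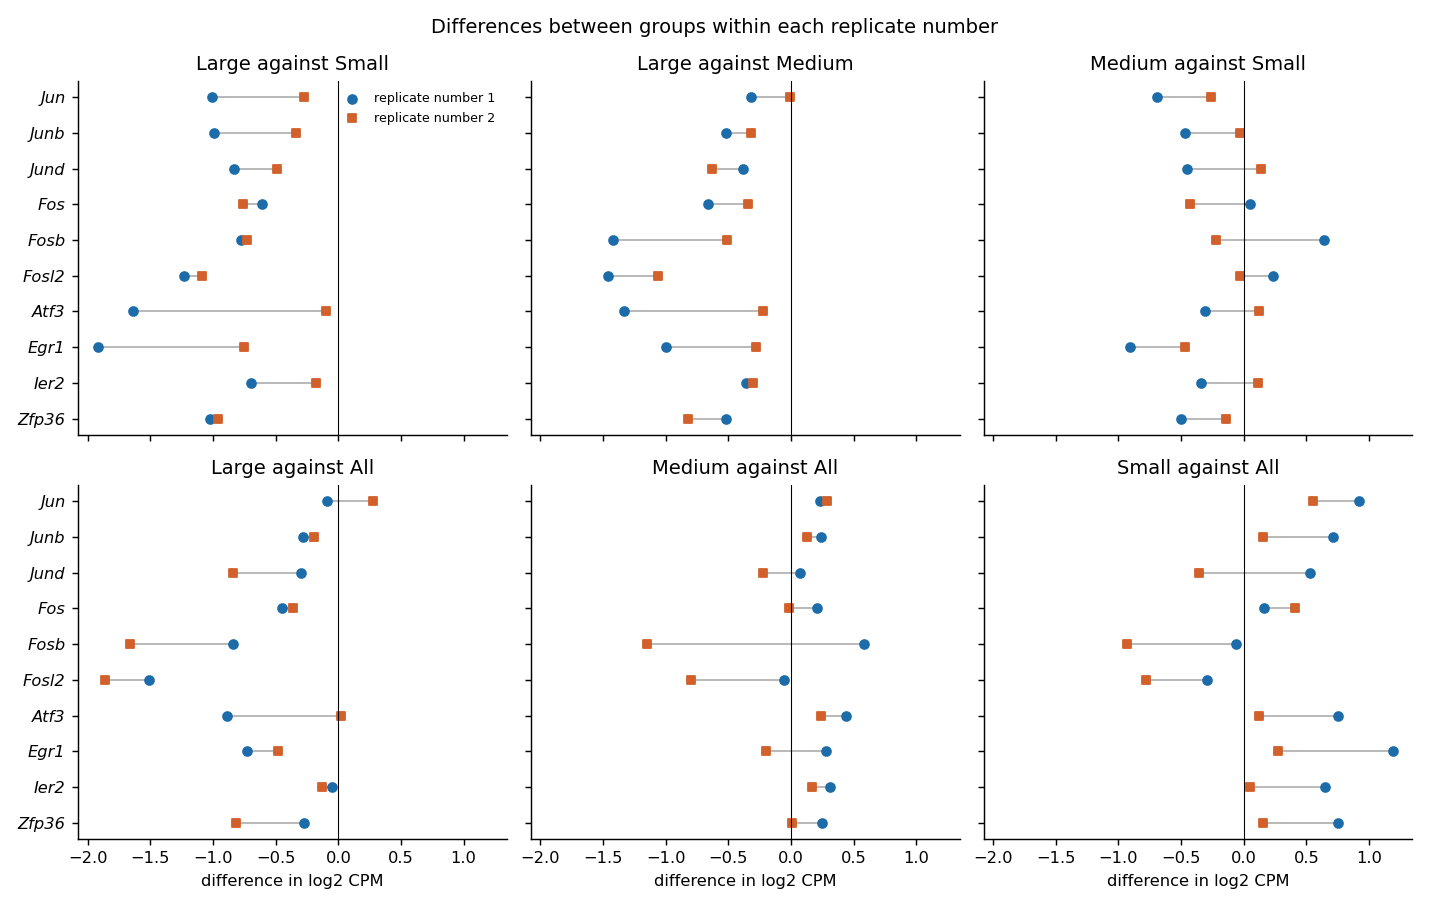
Difference in log2 CPM for each gene within replicate number 1 (circles) and number 2 (squares) in the 6 comparisons of groups, joined by a grey line. Points lie left of 0 for all 10 genes in Large against Small and Large against Medium, while Medium against Small holds both signs for 6 genes.

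Against the unfractionated cells, Large was lower within both numbers for 8 of 10 genes, against 32.6% of all genes, and Small was higher within both for 7 of 10, against 26.7%. Fosl2 had 11.8 and 55.6 CPM in Large, against 33.9 and 202 in All, differences of -1.51 and -1.86 in log2 CPM, and Fosb differed by -0.84 and -1.66. Jun was near the level of All in Large (-0.09 and 0.28) and higher in Small (0.92 and 0.55), and Egr1 was lower in Large (-0.73 and -0.48) and higher in Small (1.19 and 0.27). Fosb and Fosl2 were lower in Small too, 2 of 10 genes against 31.3% of all genes, Fosb by -0.06 and -0.93 and Fosl2 by -0.29 and -0.78. The highest level of each was in All 2, at 249 and 202 CPM.

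In Large against All, edgeR called 0 of 16066 genes with or without the block (504 at an unadjusted p under 0.05 without it), and DESeq2 called 8 without it. Leaving out All 1 raised edgeR's count with the block to 846, Fosl2, Fosb, Zfp36 and Jund among them. DESeq2 with the block called 1622, and 4 of the 10 fell in Large, against 4.1% of all genes. They were Fosl2 (log2 fold change -1.70, SE 0.23, adjusted p = 2.5e-09), Fosb (-1.30, SE 0.34, adjusted p = 0.0039), Zfp36 (-0.54, SE 0.18, adjusted p = 0.026) and Jund (-0.58, SE 0.21, adjusted p = 0.045). In Small against All, edgeR called 0 genes (637 at an unadjusted p under 0.05) and DESeq2 19, and DESeq2 with the block called 369. Jun (0.77, SE 0.17, adjusted p = 0.0019) and Egr1 (0.78, SE 0.25, adjusted p = 0.049) rose in Small by that fit, against 1.61% of all genes called higher. In Medium against All, 5 of 10 genes, Jun, Junb, Atf3, Ier2 and Zfp36, were higher in Medium within both numbers, against 24.6% of all genes, Fosl2 was lower within both, as were 24.9% of all genes, and none of the 10 was called by edgeR (0 genes in all, 262 at an unadjusted p under 0.05) or by DESeq2 (6 genes without the block, 12 with it).

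Large gaps separated the replicate numbers for these genes. With the size group as the other term, edgeR called 9 of the 10, 5 higher and 4 lower in number 2, against 12.5% of all genes called higher and 12.1% called lower. Fosl2 rose most (log2 fold change 2.18, SE 0.14, adjusted p = 0.00017), followed by Fosb (1.38, SE 0.26, adjusted p = 0.012), Jund (1.22, SE 0.14, adjusted p = 0.0011), Egr1 (1.15, SE 0.19, adjusted p = 0.0067) and Atf3 (1.04, SE 0.23, adjusted p = 0.019). Fos fell most (-1.47, SE 0.09, adjusted p = 0.00016), then Zfp36 (-0.99, SE 0.11, adjusted p = 0.0011), Junb (-0.54, SE 0.11, adjusted p = 0.012) and Ier2 (-0.47, SE 0.11, adjusted p = 0.018). Jun did not pass (-0.10, SE 0.11, adjusted p = 0.56).

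Each of these 9 genes kept its direction in all 4 groups, where 22.9% of all genes were higher and 23.1% lower in number 2 in all 4. Fosl2 was higher in number 2 by 2.22 in Large, 1.83 in Medium, 2.08 in Small and 2.57 in All, in log2 CPM. Fos was lower by -1.40, -1.73, -1.25 and -1.50 in the same groups. The make-up of AP-1 mRNA therefore differed between the numbers. Per length, Jund held 32.1% to 47.6% of the TPM of the 3 Jun genes in number 2 and 16.6% to 19.7% in number 1. Fos held 60.8% to 80.9% of the TPM of the 3 Fos genes in number 2 and 95% to 97.2% in number 1. Granulocyte and monocyte, erythroid, megakaryocyte, and T and NK cell markers were lower in number 2 within every group and HSC markers higher, and their part in these differences was not tested. Since the labels do not say what a number shares, animals, sort and library preparation cannot be told apart here.

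**Figure D4:**
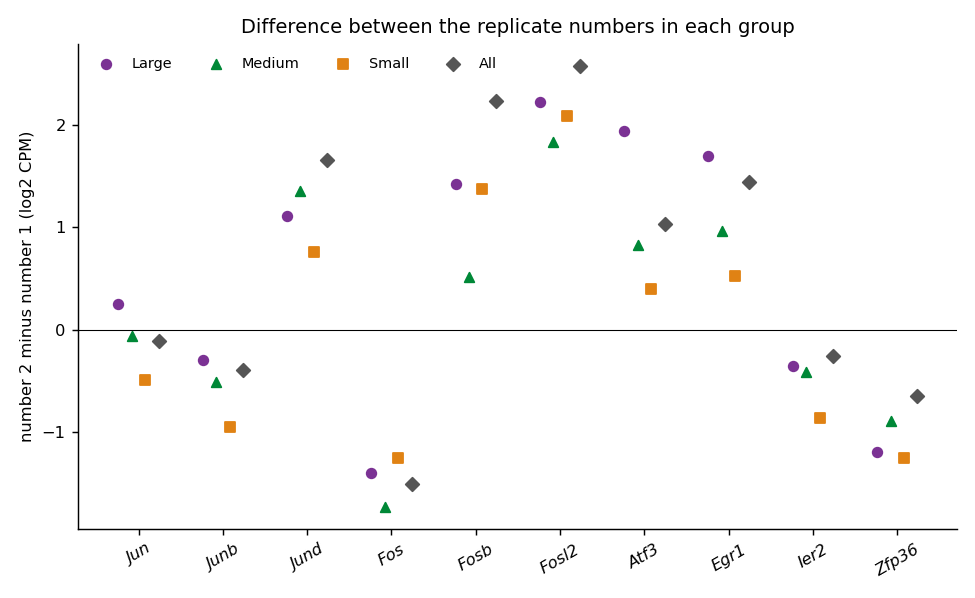
Difference in log2 CPM between replicate number 2 and number 1 for each gene in Large (circles), Medium (triangles), Small (squares) and All HSCs (diamonds). Fosl2, Fosb, Jund, Egr1 and Atf3 are above 0 in all 4 groups, Fos, Zfp36, Junb and Ier2 are below 0 in all 4, and Jun has both signs.

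The rest of the pathway was described by 8 lists holding 121 genes. Of all genes tested, 30.9% were lower and 32.9% higher in Large than in Small within both numbers, their median difference was 0.02 in log2 CPM, and DESeq2 with the block called 4.2% lower and 4.62% higher. Of 39 other immediate early genes, 30 (76.9%, against 30.9% of all genes) had lower values in Large HSCs within both numbers, and their median difference was -0.59 in log2 CPM. DESeq2 with the block called 18 of the 39 lower (46.2%, against 4.2%) and 0 higher, and edgeR called no gene of any list, with or without the block (adjusted p of at least 0.98 without it for each list gene named here). The adjusted p-values below are from DESeq2 with the block unless edgeR is named. Tnfaip3, an inhibitor of NF-kB signalling, had 218 and 146 CPM in Large 1 and 2 against 443 and 266 in Small (DESeq2 with the block, adjusted p = 4.9e-08). Klf2, a zinc finger factor of quiescence, had 16.7 and 21.2 CPM in Large against 33.8 and 30.2 in Small (adjusted p = 0.047 by the same fit). Id1 and Id3, inhibitors of basic helix-loop-helix factors, had mean differences above 0 and adjusted p = 0.51 and 0.69.

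Upstream of the 10 genes, 10 of 17 MAP kinase genes (58.8%, against 30.9% of all genes) were lower in Large within both numbers, with a median of -0.14. DESeq2 with the block called 1 of them lower, 5.88% of the list and near the 4.2% of all genes. That gene was Map2k7, an activator of JNK, the kinase that phosphorylates Jun, with 30.2 and 41.4 CPM in Large against 48.4 and 64.8 in Small (adjusted p = 0.011). Mapk8, which encodes JNK1, had 11.2 and 12.0 CPM in Large against 4.02 and 5.71 in Small, with adjusted p = 0.085. Of 6 genes of serum response factor and its partners, 5 were lower within both numbers (83.3%, against 30.9%), and 2, Mrtfa and Elk3, were called lower (33.3%, against 4.2%). Mrtfa, an actin-regulated coactivator of serum response factor, had 31.7 and 30.4 CPM in Large against 68.4 and 65.3 in Small (log2 fold change -1.11, SE 0.21 in edgeR, adjusted p = 0.98, and 7.9e-06 in DESeq2 with the block). Elk3, a ternary complex factor, had 27.7 and 40.8 CPM in Large against 43.8 and 75.0 in Small (adjusted p = 0.0086).

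Of 14 MAP kinase phosphatase and Sprouty family genes, which feed back on these kinases, 9 (64.3%, against 30.9% of all genes) had lower values in Large in each number, with a median of -0.46, and DESeq2 with the block called 4 lower (28.6%, against 4.2%). The other 5, Dusp6, Dusp7, Dusp16, Spry2 and Spry4, had opposite signs in the 2 numbers, as far apart as 1.04 and -1.06 for Spry4. Spry1 had 28.7 and 31.0 CPM in Large against 49.5 and 57.1 in Small (adjusted p = 0.0060), and Dusp2 had 106 and 95.5 against 145 and 167 (adjusted p = 0.0077). Of 10 NF-kB genes, 7 were lower within both numbers (70%, against 30.9%) and 3 were called lower (30%, against 4.2%), among them Nfkb2, with 24.3 and 47.9 CPM in Large against 37.0 and 98.0 in Small (adjusted p = 0.0055). Of the 14 tested among 15 other AP-1 and dimer partner genes, 8 were lower within both numbers (57.1%, against 30.9%), with a median of -0.27. DESeq2 with the block called 1 lower (7.14%, against 4.2%), Mafk, a small Maf protein, with 67.0 and 72.1 CPM in Large against 106 and 95.8 in Small (adjusted p = 0.014).

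Of 8 relatives of Zfp36 and other binders of AU-rich mRNAs, 2 (25%, against 30.9% of all genes) were lower and 3 (37.5%, against 32.9%) higher in Large within both numbers, shares near those of all genes. Their median was 0.00, and DESeq2 with the block called 1 higher (12.5%, against 4.62%). It was Hnrnpd, with 214 and 182 CPM in Large against 179 and 119 in Small (adjusted p = 0.035). Zfp36l2 had 156 and 53.8 CPM in Large against 250 and 69.2 in Small, differences of -0.68 and -0.36 in log2 CPM, with adjusted p = 0.18. Zfp36l1 differed by -0.47 in number 1 and 0.00 in number 2.

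Heat shock genes are often induced together with immediate early genes when tissue is dissociated. Of 12 such genes, 7 (58.3%, against 32.9% of all genes) were higher in Large than in Small within both numbers, and DESeq2 with the block called 3 higher (25%, against 4.62%), with a median of 0.24. Dnajb1 and Dnajb4 were lower within both numbers, and Hspa1a, Hspa1b and Hspb1 had opposite signs in the 2 numbers. Their summed level was 10577 and 7936 CPM in Large libraries 1 and 2, 8894 and 7265 in Medium, 8165 and 6874 in Small, and 7297 and 6295 in All. In each number the Large library thus had the highest heat shock sum and the lowest sum of the 10 genes, which was 2836 and 2962 CPM in Large 1 and 2 against 5567 and 4237 in Small. Hsp90aa1, a cytosolic chaperone, had 858 and 426 CPM in Large against 355 and 263 in Small (adjusted p = 6.2e-05 in DESeq2 with the block, 0.98 in edgeR without it). Dnajb1, a heat-inducible cochaperone, had 247 and 371 CPM in Large against 336 and 399 in Small, with adjusted p = 0.18. These genes also serve protein folding in unstressed cells, and the part of handling in either set was not tested.

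**Figure D5:**
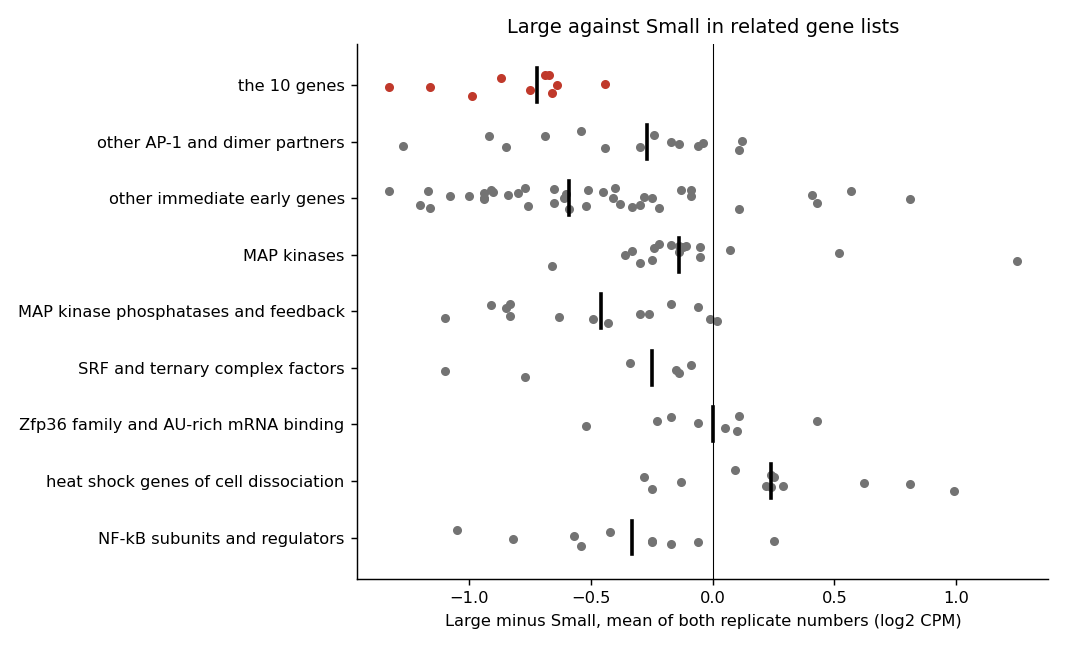
Difference in log2 CPM between Large and Small HSCs, as the mean of both replicate numbers, for each tested gene of the 10 (red) and of the 8 lists (grey), with a black bar at each median. The median of the 10 genes is -0.72, that of other immediate early genes -0.59, and that of heat shock genes 0.24.

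Among themselves the 10 genes followed the size groups to different degrees. After centring log2 CPM within each number, their mean profile was -0.60 and -0.41 in Large 1 and 2, 0.19 and 0.04 in Medium, 0.47 and 0.16 in Small, and -0.06 and 0.20 in All. Junb, Jund and Zfp36 lay closest to it (root-mean-square difference 0.135, 0.139 and 0.143 in log2 CPM over the 8 libraries), and Fosl2 (0.419) and Fosb (0.387) lay furthest, with their high levels in All 2. The others lay between 0.169 (Fos) and 0.273 (Jun). Each of the 10 genes is part of that mean, which lowers its own distance, so these distances do not compare with those of other genes. Of 10179 other genes compared, those with the most similar profile were Slc41a1, a magnesium transporter (0.063), Arrdc4 (0.0728), Elmsan1 (0.0824), Pink1, a mitochondrial kinase (0.0826), Zfpm1, a cofactor of GATA factors (0.0894), and Msh5 (0.0904). The median distance of all compared genes was 0.423 and their 5th percentile was 0.227. Slc41a1 had 11.3 and 22.1 CPM in Large libraries 1 and 2, 20.4 and 30.4 in Medium, 27.4 and 33.9 in Small, and 16.2 and 33.0 in All.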

How the data were processed

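Estimated counts per gene for the 8 libraries, rounded to whole numbers, and log2(TPM + 1) values were deposited by the authors. Per the submitters' processing notes, STAR 2.5.3a, RSEM 1.3.0, SAMtools 1.3 and build mm10 were used. No source used here names the annotation. IDs were named through GENCODE M21 (50462 of 50686; the others held up to 0.0359% of a library). The main test was edgeR 4.0.16 (R 4.3.3), a quasi-likelihood fit on the counts with TMM scaling, filterByExpr with a minimum count of 10, size group alone as a term, all 8 libraries and 4 residual degrees of freedom. P-values were two-sided, adjusted over all genes (Benjamini-Hochberg) and read at 0.05. Differences within a number used log2 CPM with a prior count of 2. An exact test of 2 against 2 libraries cannot give a two-sided p below 0.333. CPM and TPM are shares of a library, and RNA per cell was not measured.

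Same-numbered libraries deviated together from their group means in all 6 pairs of groups (r between 0.358 and 0.439 over 16066 genes), and the first principal component, with 39.5% of the variance, placed all 4 libraries of number 2 above all 4 of number 1, so fits with the number as a block (3 residual degrees of freedom) are given where they changed a call. Alternatives were DESeq2 1.42.0 and limma-trend (limma 3.58.1) on log2(TPM + 1) or log2(TPM + 0.1), with and without the block, RLE scaling, no filter, a minimum count of 30, the compared groups alone, each library left out, and removal of GC and length trends. The genes and lists were chosen with earlier results of these data known, and 1 HSC marker is not reported here. From each list the text names genes past the edgeR threshold or, where none passed, those of the 2 smallest unadjusted p in Large against Small in each direction, with a mean of at least 5 CPM, and describes those that bear on the counts. List genes named only to complete a count were chosen after their values were seen. The 6 most similar genes were named by root-mean-square distance among genes of at least 5 CPM. Only edgeR in Large against Small, with and without the block, was tested on simulated data. The simulated counts held no difference between the replicate numbers.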

Additional observations from a re-analysis of the deposited data

How the results depend on the processing

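With 2 libraries a group and large gaps between the replicate numbers, these results depend on whether the number enters the fit. In the group-only edgeR fit 0 genes were called in each of the 6 comparisons and 1 in the size trend, and RLE scaling, a minimum count of 30 and the compared groups alone moved none of these counts by over 1.5 times. With no filter on low counts edgeR called 55 genes in Large against Small, 58 in Large against Medium, 73 in Medium against Small, 121 in Large against All (Fosb and Fosl2 among them), 48 in Medium against All and 69 in Small against All. DESeq2 called 10, 2, 43, 8, 6 and 19 in the same order and 0 in the trend. DESeq2 with the replicate block called 1417, 923, 518, 1622, 12 and 369, and 668 in the trend, whereas edgeR with the block called 0 in each comparison. On log2(TPM + 1), limma-trend called 1 gene each in Large against Small, Medium and All, and with the replicate block 89, 5 and 103, 1 in Medium against Small, and 0 in the trend, as it did without the block and on log2(TPM + 0.1). The 89, 5 and 103 genes held 2, 0 and 1 of the 10 AP-1 and immediate early genes, each lower in Large. With GC and length trends removed and the block, 10 genes were called in Large against Small, none of the 10 AP-1 and immediate early genes among them. That limma-trend fit called 238 in Large against All, 100 of them lower. Of the 10, Fosl2 alone was among these (log2 fold change -1.52, adjusted p = 0.031). The cause of these differences between tools was not tested.

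Leaving out 1 library at a time, with or without the block, gave 0 to 253 called genes in Large against Small, 0 to 73 in Large against Medium, 0 to 8 in Medium against Small, 0 to 846 in Large against All, 0 to 58 in Medium against All, 0 to 224 in Small against All and 0 to 9 in the trend, and the highest counts came with All 1 or All 2 left out of the blocked fit, except in the trend.

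Where direction turned on leaving out a library, the log2 fold changes ranged as follows. In Large against Small they were -1.52 to 0.10 for Fos, -1.62 to 0.10 for Fosb, -2.63 to 0.28 for Fosl2, -1.86 to 0.09 for Atf3 and -0.86 to 0.00 for Ier2. In Large against Medium they were -0.40 to 0.07 for Jun, -1.21 to 0.24 for Jund, -1.44 to 0.53 for Fos, -2.65 to 0.01 for Fosl2, -1.81 to 0.14 for Atf3 and -1.56 to 0.13 for Egr1. In Medium against Small they were -0.70 to 0.25 for Junb, -0.87 to 0.47 for Jund, -1.19 to 0.68 for Fos, -0.45 to 0.91 for Fosb, -1.15 to 1.42 for Fosl2, -0.51 to 0.35 for Atf3, -0.53 to 0.33 for Ier2 and -0.90 to 0.37 for Zfp36. In Large against All they were -0.14 to 0.33 for Jun, -1.35 to 0.35 for Jund, -1.29 to 0.54 for Fos, -2.35 to 0.04 for Fosb, -1.50 to 0.45 for Atf3, -1.62 to 0.35 for Egr1, -0.27 to 0.08 for Ier2 and -1.17 to 0.02 for Zfp36. Values in Medium against All were -0.08 to 0.47 for Junb, -0.92 to 0.90 for Jund, -0.96 to 1.14 for Fos, -1.34 to 0.85 for Fosb, -1.80 to 1.13 for Fosl2, -0.11 to 0.91 for Atf3, -0.56 to 0.83 for Egr1 and -0.35 to 0.59 for Zfp36. Those in Small against All were -0.06 to 0.89 for Junb, -0.64 to 0.96 for Jund, -0.53 to 1.21 for Fos, -1.57 to 0.78 for Fosb, -2.09 to 1.10 for Fosl2, -0.02 to 0.96 for Atf3, -0.09 to 0.78 for Ier2 and -0.21 to 1.04 for Zfp36. The slope of Atf3 ranged from -0.76 to 0.02. Without the block, leaving out a library compares unequal mixtures of the numbers, by construction. Signs turned with the block too. Without Large 1, blocked log2 fold changes in Large against Medium reached 0.07, and 9 of the 10 genes were lower in Large. Without Small 1, those in Medium against Small ran from -0.34 to 0.35. There 4 of the 10 were lower in Medium, against 8 in the blocked edgeR fit of all libraries.

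Other settings turned the sign of 4 small differences. Fosl2 in Medium against Small was -0.00 with no filter and -0.18 in the 3 TPM fits, and Jun in Large against All was -0.03 in those fits. Egr1 in Medium against All was 0.03 with the replicate block in edgeR, 0.05 in DESeq2 with it, 0.01 in the 3 TPM fits and 0.09 in both fits with GC and length trends removed. Jund in Small against All was 0.09, 0.11, 0.13 and 0.04 in the same fits. Large lay below Small and below Medium for all 10 genes in every setting that kept all 8 libraries or only the groups compared. In number 2 against number 1 the 9 calls held with DESeq2 and with GC and length trends removed, where Jun was also called (-0.30, adjusted p = 0.040). The fits that remove those trends, the comparison of the numbers and the blocked fits without 1 library were added after seeing the data.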
